A study of Mus musculus with 30 samples.

Results

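Double-positive (DP) thymocytes, the developing T cells that carry both CD4 and CD8, were compared between mice with a conditional Prmt5 knockout and wild type mice across all expressed genes. The members were taken from the sample titles: 3 knockout libraries (CKO, mice 14, 17 and 23) and 3 wild type libraries (WT, mice 15, 18 and 24), which are 6 of the 30 libraries in the series. The other libraries came from CD4 and CD8 single-positive (SP) cells of the thymus and from spleen T cells. By the labels the CKO mice were CD4-Cre+ PRMT5fl/fl and the WT mice wild type, all on the strain C57BL/6, and the cells were sorted by flow cytometry. CD4-Cre is a transgene that places the recombinase under Cd4 regulatory sequence, and Cre acts in the T lineage from about the DP stage onward. No group is labelled as carrying CD4-Cre without the floxed gene, and a contribution of Cre itself cannot be told apart from that of the deletion. Age and sex are not in the labels. Each library is labelled with its own animal number, so the p-values measure the spread between these 3 mice per genotype.

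Prmt5 encodes an arginine methyltransferase that works with the partner protein WDR77 and places symmetric dimethyl marks on histones and on the Sm proteins of the spliceosome. DP thymocytes arise from dividing precursors, stop dividing, rearrange the T cell receptor alpha locus with the RAG recombinase and then live or die by selection. Cells that receive a survival signal move on to the CD4 or CD8 lineage, and the rest die by apoptosis through proteins of the BCL2 family.

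Each library held between 13032992 and 18576401 counts in genes. Levels are given as CPM, the count of a gene scaled to a fixed library size, with library sizes corrected by edgeR's trimmed mean of M-values (TMM). The label of the cells was checked against Rag1, a recombinase gene of this stage, and the coreceptor genes Cd4 and Cd8a. All 3 were abundant in each library: Rag1 at 2805 to 4011 CPM, Cd4 at 1578 to 1753 CPM and Cd8a at 2608 to 2825 CPM. None differed between the genotypes by edgeR's quasi-likelihood test (adjusted p = 0.994 for Rag1, 0.985 for Cd4 and 0.943 for Cd8a). Markers of other cells had lower summed levels. These were 15.4 to 19.3 CPM for 8 B cell markers, mostly from Cd79b (12.5 to 16.0 CPM), with Pax5 below 1 CPM in all 6 libraries. The 7 erythroid markers summed to 1.86 to 3.41 CPM, with Hba-a2 at 0. The 7 epithelial markers summed to 29.8 to 39.2 CPM, mostly from Ly75 (20.5 to 28.7 CPM). Myeloid and dendritic markers had the highest sum, at 101 to 148 CPM. Double-negative markers summed to 31.0 to 55.5 CPM, and cytotoxic and innate-like markers to 23.1 to 36.7 CPM. WT 18 and CKO 17 stood apart: they were the shallowest libraries, they alone had high levels of the Y-linked gene Ddx3y (162 and 155 CPM against 0 to 3.95 in the rest), and they lay on 1 side of the first dimension of a scaling plot, which held 33.2% of the variance. With 1 such library in each genotype, this split crosses the comparison.

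The targeted gene was lower in every CKO library, and only 2 other genes passed the test. Prmt5 (GRCm38 chr14:54507182-54517470) stood at 66.1 CPM in WT 15, 59.9 in WT 18 and 69.7 in WT 24, whereas CKO 14 had 31.1 CPM, CKO 17 had 30.4 and CKO 23 had 30.6. The groups did not overlap, and the CKO libraries lay within 1 CPM of each other. On the log2 scale Prmt5 fell by 1.09 ± 0.09 (standard error, SE), to 0.470 of the WT level (edgeR's quasi-likelihood test, adjusted p = 8.45e-04). These are counts over the whole gene, and which exons were floxed is not given in the sources used here. Of 11634 genes tested, 2 were higher in CKO (0.0172%) and 1, Prmt5 itself, was lower (0.0086%), at an adjusted p under 0.05, which makes 3 genes in all (0.0258%). In bulk RNA, a gene active in fewer cells and a gene with less RNA in each cell cannot be told apart.

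The partners and relatives of PRMT5 gave no call. In the list of arginine methyltransferases and methylosome partners, 12 of 14 genes had enough counts, and 0 were higher, 1 (Prmt5) lower and 11 not called. Wdr77, the obligate partner of PRMT5, stood at 30.9 to 35.3 CPM in WT and 30.5 to 33.3 CPM in CKO. Clns1a, whose product brings Sm proteins to PRMT5, stood at 90.4 to 96.8 CPM in WT and 84.6 to 105 CPM in CKO. Prmt1, the main asymmetric methyltransferase, stood at 96.2 to 115 CPM in WT and 88.4 to 103 CPM in CKO. The ranges overlapped for all 3 genes. Prmt9, the other gene for a symmetric methyltransferase of splicing proteins, had an estimate of -0.17 ± 0.09 with no overlap between the genotypes, and did not pass (edgeR's quasi-likelihood test, adjusted p = 0.756).

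Bmf and Mbnl1 rose in CKO, with all 3 CKO mice above all 3 WT mice. Bmf (chr2:118528757-118549686) encodes a BH3-only protein that promotes apoptosis by binding survival proteins of the BCL2 family. It stood at 203, 182 and 190 CPM in WT 15, 18 and 24 and at 304, 285 and 286 CPM in CKO 14, 17 and 23. Every CKO library was above every WT library, with a gap several times the spread within a genotype (log2 0.60 ± 0.07, 1.52-fold, edgeR's quasi-likelihood test, adjusted p = 0.00823). Mbnl1 (chr3:60472559-60629750) encodes a muscleblind protein that binds RNA and sets the use of alternative exons. It stood at 484, 450 and 463 CPM in WT 15, 18 and 24 and at 678, 695 and 681 CPM in CKO 14, 17 and 23. Again the groups did not overlap (log2 0.56 ± 0.06, 1.47-fold, adjusted p = 0.00823 by the same test).

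**Figure D1:**
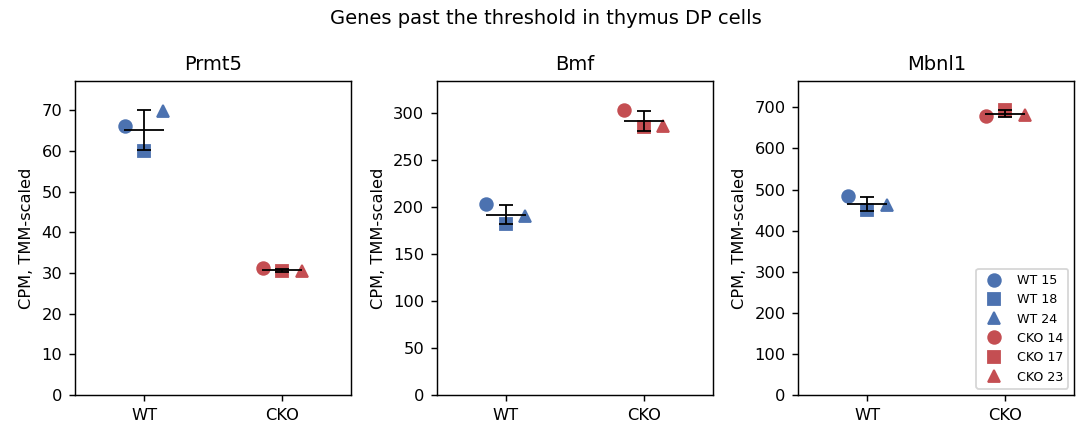
CPM (linear axis from 0) of Prmt5, Bmf and Mbnl1 in the 6 thymus DP libraries. Points are libraries, with 1 symbol per animal, and the black line and bar give the mean and SD of 3 libraries. The CKO libraries of Prmt5 sit at 30.4 to 31.1 CPM, below all WT libraries, and those of Bmf and Mbnl1 sit above all WT libraries.

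The calls of Bmf and Mbnl1 depended on the libraries in the fit, while their estimates moved little (0.56 to 0.65 for Bmf and 0.53 to 0.58 for Mbnl1 with 1 library left out). By edgeR's quasi-likelihood test both had an adjusted p of 0.134 without WT 18, 0.0773 without WT 24 and 0.134 without CKO 14. In a fit over the 12 libraries of the table, which adds thymus CD4 SP, all 3 genes had an adjusted p of 1.

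Genes beside Prmt5 and Mbnl1 on the chromosome mostly had levels close to WT. Of the 20 tested genes nearest to Prmt5 (10 on each side), 0 had an unadjusted p under 0.05, against 7.07% of all genes, and their median log2 fold change was -0.03. Of the 20 nearest to Mbnl1, 0 were called, and 2 were higher and 1 lower at an unadjusted p under 0.05. Over all genes 3.23% were higher and 3.83% lower at that p. The higher genes were Gpr171 (0.34 ± 0.13), a G protein-coupled receptor gene, and its neighbour P2ry14 (0.52 ± 0.22), a receptor gene for UDP sugars. Gpr171 stood at 33.4, 34.4 and 38.5 CPM in WT 15, 18 and 24 and at 50.7, 47.9 and 36.4 CPM in CKO 14, 17 and 23, so CKO 23 lay within the WT range. Siah2, a ubiquitin ligase gene on the same side, stood at -0.16 ± 0.07. The pseudogene model Gm33707 (chr3:60769583-60771638), which was picked out after its values were seen, lies 139833 bases beyond the end of Mbnl1. Gm33707 had 91, 80 and 55 counts in the 3 CKO libraries of thymus CD8 SP and 0 to 1 in WT, and 1087 to 1909 counts in CKO spleen CD4 against 0 to 1 in WT, while CKO spleen CD8 had 0 to 2. Its level in DP cells was not analysed here, and its part in the rise of Mbnl1 was not tested.

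In the other populations Bmf did not have the pattern of DP cells. In thymus CD8 SP it stood at 39.0 to 51.9 CPM in WT and 35.1 to 39.3 CPM in CKO, and in the spleen between 3.41 and 17.2 CPM in both genotypes. Mbnl1 stood at 835 to 876 CPM in WT and 1014 to 1041 CPM in CKO of thymus CD8 SP, so all CKO libraries lay above WT there as in DP. In the spleen the genotypes overlapped for Mbnl1, at 1367 to 1497 CPM in WT and 1414 to 1493 CPM in CKO of CD4 cells, and at 1447 to 1568 and 1423 to 1590 CPM of CD8 cells. These libraries were counted in other tables, so the levels are set side by side without a test. In thymus CD4 SP libraries with the same mouse numbers Bmf was 122 to 161 CPM in WT and 334, 14.05 and 127 CPM in CKO 14, 17 and 23. Mbnl1 was 476 to 721 CPM there in WT and 198, 1179 and 1063 CPM in those CKO mice. The CKO libraries of CD4 SP thus ranged above and below WT for both genes. They also differed in DP genes: Rag1 was 2089, 30.5 and 955 CPM in CKO 14, 17 and 23, against 709 to 1759 CPM in WT. Cd8a was 2416, 43.7 and 955 CPM in those CKO libraries, against 1099 to 1533 CPM in WT. The libraries labelled CD4 SP thus held transcripts of DP genes at unequal levels, and comparisons of DP with them carry that limit. Across genes, the deviations of DP CKO 23 from its group correlated with CD4 SP of CKO 14 (0.168) and not with its own number (-0.135). By that correlation alone the match of the mouse is uncertain. Ddx3y had 0 counts in both libraries of CKO 14, and 62 in DP and 108 in CD4 SP of CKO 23. Pkd1l2, a polycystin family gene, had 23 and 27 counts in DP and CD4 SP of CKO 14, and 0 and 2 in CKO 23. Both genes thus went with the labelled numbers for CKO 14 and CKO 23. Ddx3y had similar counts in WT 24 (73 in DP and 46 in CD4 SP), so it does not single out CKO 23. Pkd1l2 was picked out after its values were seen, so the match of the mouse stays uncertain.

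Whether the genotype effect differed between DP and CD4 SP was tested as an interaction over these 12 libraries. No gene passed: 0 had a more positive effect in DP (0%) and 0 a more negative one (0%) of 12216 tested by edgeR's quasi-likelihood test, with 263 (2.15%) at an unadjusted p under 0.05. DESeq2 called 0 as well. The effect in CD4 SP was -0.99 ± 0.27 for Prmt5, 0.14 ± 0.88 for Bmf and 0.51 ± 0.60 for Mbnl1, and the differences from DP were -0.06 ± 0.26, 0.52 ± 0.96 and 0.05 ± 0.67. The libraries of a mouse were not paired in that fit. With the animal as a block the differences were -0.02, 1.25 and 0.38, and none was called. For Bmf and Mbnl1 the SE in CD4 SP was larger than the effect in DP, so neither a shared nor a different effect was shown.

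Below the threshold, the genes with the smallest p stood at an adjusted p of 0.660 by edgeR's quasi-likelihood test, and none was called. Across all genes 376 were higher (3.23%) and 446 lower (3.83%) at an unadjusted p under 0.05, and the CKO libraries lay wholly above WT for 734 genes (6.31%) and wholly below for 686 (5.9%). On the higher side were Hivep3, a zinc finger transcription factor gene (85.1, 85.6 and 99.3 CPM in WT 15, 18 and 24, and 118, 129 and 115 CPM in CKO 14, 17 and 23), and Tnik, a kinase gene of the Wnt pathway (80.8 to 103 CPM in WT and 114 to 126 CPM in CKO). Tox, whose factor is needed for the CD4 lineage, stood at 60.7, 63.4 and 62.6 CPM in WT 15, 18 and 24 and at 85.3, 79.8 and 75.1 CPM in CKO 14, 17 and 23. The groups did not overlap for these 3 genes, with log2 estimates of 0.42 ± 0.08, 0.43 ± 0.09 and 0.36 ± 0.08. Fzd10, a Wnt receptor gene, stood at 12.3 to 16.8 CPM in WT and 19.6 to 27.8 CPM in CKO (0.71 ± 0.15). Itm2a, a membrane protein gene induced at positive selection, stood at 49.3 to 61.3 CPM in WT and 70.7 to 74.1 CPM in CKO (0.41 ± 0.09). Sh3pxd2a, an adaptor gene of cell protrusions, stood at 0.29 ± 0.07, and St6gal1, a sialyltransferase gene, at 0.45 ± 0.10. DESeq2, run on the same genes, called 8 higher: Bmf, Mbnl1, Hivep3, Tnik, Tox, Fzd10, Itm2a and St6gal1.

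Klf10, a Krüppel-like factor gene induced by TGF-beta, stood at 113, 130 and 107 CPM in WT 15, 18 and 24 and at 87.9, 76.9 and 89.3 CPM in CKO 14, 17 and 23, with no overlap (-0.46 ± 0.09). Ier5, an immediate early gene, stood at 223 to 229 CPM in WT and 162 to 198 CPM in CKO (-0.34 ± 0.08). DESeq2 called 11 lower: Prmt5, the mitosis genes Cenpf, Cenpe, Kif23, Anln and Aspm, the helicase gene Pif1, Klf10, Ier5, Plppr3 and Gapdh. Gapdh stood at only 30.1 to 38.7 CPM in WT and 21.9 to 27.6 CPM in CKO. This gene and Rps29 (4.65 to 7.53 CPM in WT, 3.41 to 4.49 CPM in CKO) have many near-identical copies in the genome, so counting can split their reads and both values are uncertain.

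Genes with the largest folds were taken from those without overlap and with at least 5 CPM in the group where they were higher. Tigit, Slc25a24, Zscan10, Runx2, Rps29 and Mei4 entered only through that group, a choice that favours large folds, so the values are a description. Ramp3, which encodes a protein that modifies calcitonin-type receptors, stood at 5.29, 3.76 and 6.22 CPM in WT 15, 18 and 24 and at 9.79, 21.3 and 7.83 CPM in CKO 14, 17 and 23 (1.32 ± 0.33). CKO 17 was far above the other CKO libraries. Tigit, an inhibitory receptor gene of T cells, stood at 2.23 to 2.81 CPM in WT and 4.19 to 6.86 CPM in CKO (1.04 ± 0.24). Runx2, a runt family transcription factor gene, stood at 4.16 to 4.55 CPM in WT and 6.11 to 8.37 CPM in CKO (0.73 ± 0.18). Further genes with higher estimates were Zscan10 (0.89 ± 0.30), Slc25a24 (0.87 ± 0.22) and Ephx1 (0.69 ± 0.17). With lower estimates there were Gadd45g, a stress response gene (-0.64 ± 0.19, with CKO 17 lowest at 17.7 CPM against 37.7 to 45.3 in WT), Cd68 (-0.63 ± 0.15), Mei4 (-0.60 ± 0.20), Arhgap24 (-0.60 ± 0.24), Pif1 (-0.59 ± 0.14) and Efcab5 (-0.58 ± 0.17).

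**Figure D2:**
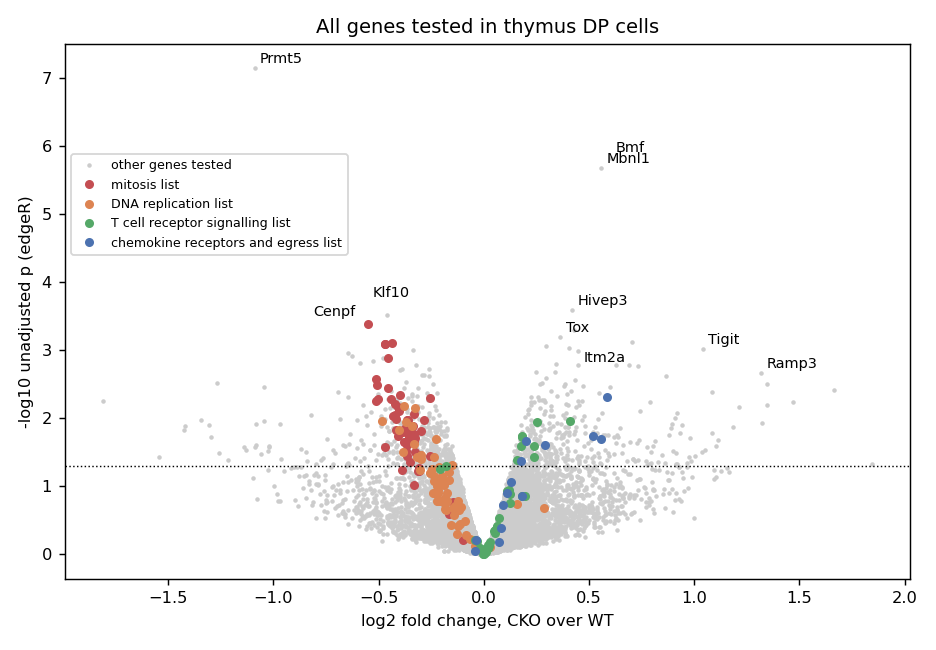
Log2 fold change (CKO over WT) against -log10 of the unadjusted p from edgeR for all 11634 genes tested in thymus DP, with 4 gene lists in colour and a dotted line at a p of 0.05. Prmt5, Bmf and Mbnl1 stand apart at the top, and the 60 mitosis genes all lie left of 0.

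Every tested gene of mitosis had a lower estimate in CKO. The list held 61 genes, of which 60 had enough counts. Like the other lists, it was written with earlier results of these data known, so its shares are a description. All 60 estimates were negative, against 49.1% of all genes, with a median log2 fold change of -0.37 beside 0.003 over all genes. By edgeR's quasi-likelihood test 0 were higher, 0 lower and 60 not called; 49 (81.7%) had an unadjusted p under 0.05, beside 3.83% of all genes, and 16 (26.7%) had all CKO libraries below all WT libraries, beside 5.9%. DESeq2 called 5 of them lower.

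The genes with the smallest p had roles across mitosis. Cenpf, a kinetochore gene, stood at 165, 240 and 194 CPM in WT 15, 18 and 24 and at 135, 137 and 137 CPM in CKO 14, 17 and 23 (-0.55 ± 0.11, adjusted p = 0.660 by edgeR's quasi-likelihood test). The CKO libraries were nearly equal, and WT 15 was the WT library nearest to them. Kif23, a kinesin gene of the central spindle, stood at 131, 168 and 151 CPM in WT and 111, 101 and 121 CPM in CKO, in the same order of mice. Anln, whose product anillin shapes the cleavage furrow, stood at 53.9, 67.2 and 67.2 CPM in WT and 48.5, 44.6 and 42.8 CPM in CKO. Aspm, a spindle pole gene, stood at 109, 150 and 143 CPM in WT and 98.0, 93.8 and 97.9 CPM in CKO. In all 3 genes WT 15 was again the lowest WT library and still above every CKO library. Mki67, the gene of the proliferation marker Ki-67, stood at 963, 1484 and 1193 CPM in WT and 920, 915 and 918 CPM in CKO. Top2a, which untangles sister chromatids, overlapped: 740, 1063 and 1086 CPM in WT and 817, 675 and 811 CPM in CKO. Cdk1, the kinase that drives entry into mitosis, also overlapped, at 77.9, 107 and 104 CPM in WT and 80.7, 70.3 and 78.0 CPM in CKO. In both, WT 15 lay among the CKO libraries.

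Promoters of these genes were read to show what the leading members share in sequence. The 4 windows run from 150 bases before the start given in the promoter set to 30 after it, from RefSeq GRCm38.p6, 5′ to 3′ on the strand of the gene: Cenpf chr1:189688057-189688236 (minus), Kif23 chr9:61946770-61946949 (minus), Anln chr9:22389177-22389356 (minus) and Aspm chr1:139454623-139454802 (plus). These starts lie inside the gene limits of the annotation. Those limits begin at 189688107 for Cenpf, 61946810 for Kif23, 22389211 for Anln and 139454188 for Aspm. Capitals mark TTTGAA or its reverse complement TTCAAA, the core of the cell cycle homology region found in promoters of late cell cycle genes, and CCAAT or its reverse complement ATTGG, the core bound by the factor NF-Y.
Cenpf: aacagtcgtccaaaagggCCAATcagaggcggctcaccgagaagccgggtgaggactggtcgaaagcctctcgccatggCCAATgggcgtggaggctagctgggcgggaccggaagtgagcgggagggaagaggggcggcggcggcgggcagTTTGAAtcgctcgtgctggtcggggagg
Kif23: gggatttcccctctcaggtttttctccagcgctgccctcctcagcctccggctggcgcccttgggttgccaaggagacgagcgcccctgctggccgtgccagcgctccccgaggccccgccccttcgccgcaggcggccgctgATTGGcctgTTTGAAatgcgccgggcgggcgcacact
Anln: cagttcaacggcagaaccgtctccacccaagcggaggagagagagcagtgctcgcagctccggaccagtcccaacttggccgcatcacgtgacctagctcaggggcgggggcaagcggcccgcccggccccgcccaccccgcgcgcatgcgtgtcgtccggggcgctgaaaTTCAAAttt
Aspm: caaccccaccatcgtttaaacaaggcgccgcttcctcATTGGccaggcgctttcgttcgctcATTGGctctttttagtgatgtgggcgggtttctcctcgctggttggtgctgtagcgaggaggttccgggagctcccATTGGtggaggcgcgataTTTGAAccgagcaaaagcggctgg

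In each of the 4 windows a copy of TTTGAA or TTCAAA lay just after the promoter start: its first base was 2 bases after that start base in Cenpf and Kif23, 6 in Aspm and 21 in Anln. Over windows of 300 bases (250 before to 50 after the start, both strands), TTTGAA was found in 39 of the 52 mitosis promoters in the RefSeq table (75.0%), beside 1269 of 9134 promoters of all genes tested (13.9%). It was found in 7 of 48 promoters of the DNA replication list (14.6%). Of other genes lower at an unadjusted p under 0.05 it was found in 21.2%, and of genes higher at that p in 15.3%. CCAAT was found in 75.0% of mitosis promoters, 60.4% of DNA replication promoters and 43.2% of all. The motifs can share at most 1 end base, and a match is a description of these windows, not a bound site. The shares of the mitosis and DNA replication lists follow from their members and use no difference between the genotypes.

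The level of the mitosis list depended on which WT library was taken. Summed over its members it was 7866 CPM in WT 15, 11165 in WT 18 and 10520 in WT 24, and 7877, 7149 and 7942 CPM in CKO 14, 17 and 23. WT 15 thus lay among the CKO libraries, and the 2 other WT libraries above all of them. Without WT 15 the test called 38 genes lower, 25 of them from this list, and the list's median was -0.52. Without WT 18 the median was -0.27 and 21 members had an unadjusted p under 0.05, and without WT 24 these were -0.30 and 22. Without both WT 18 and CKO 17, the libraries with high levels of Y-linked transcripts, the median was -0.21, with 12 members at an unadjusted p under 0.05. Of all genes, 1.74% were lower at that p without WT 18, 2.97% without WT 24 and 1.81% without both WT 18 and CKO 17. The median of the mitosis list stayed negative in each of these fits.

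**Figure D3:**
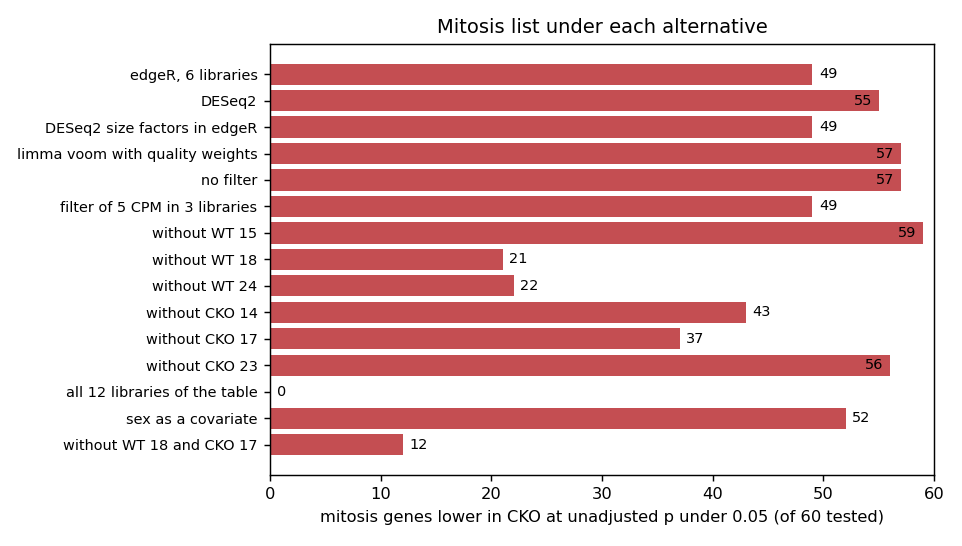
Number of the 60 tested mitosis genes that were lower in CKO at an unadjusted p under 0.05, with the 6 libraries as reported (49, top bar) and under each alternative. The number runs from 0 in the fit over 12 libraries to 59 without WT 15. Of all genes, 0.409% were lower at that p over 12 libraries and 5.38% without WT 15, beside 3.83% with the 6 libraries.

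DNA replication genes leaned the same way by less. Of 60 tested, 57 estimates were negative, with a median of -0.19; 0 were higher, 0 lower and 60 not called, 14 (23.3%) were lower at an unadjusted p under 0.05, beside 3.83% of all genes, and 5 (8.33%) had all CKO libraries below WT, beside 5.9%. Clspn, a checkpoint adaptor gene of the replication fork, stood at 93.7, 135 and 112 CPM in WT 15, 18 and 24 and at 88.8, 92.0 and 80.9 CPM in CKO 14, 17 and 23 (-0.38 ± 0.11, adjusted p = 0.660 by edgeR's quasi-likelihood test). E2f2, a cell cycle transcription factor gene, stood at 592, 758 and 774 CPM in WT and 569, 530 and 596 CPM in CKO, and Cdc45, of the replicative helicase, at 45.1, 63.8 and 62.0 CPM in WT and 43.6, 45.6 and 42.8 CPM in CKO, in the same order. Both overlapped, by WT 15. Mcm2, of the helicase ring, and Pcna, the sliding clamp, stood at -0.12 ± 0.09 and -0.17 ± 0.09. The summed level was 5883, 7536 and 7677 CPM in WT 15, 18 and 24 and 6207, 6268 and 5829 CPM in CKO 14, 17 and 23, so WT 15 again lay with the CKO libraries. Without WT 15, 40 members were lower at an unadjusted p under 0.05 and 3 were called, without WT 18 there were 3 lower and without WT 24 there were 5. The shares of all genes lower at that p in these fits were 5.38%, 1.74% and 2.97%.

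**Figure D4:**
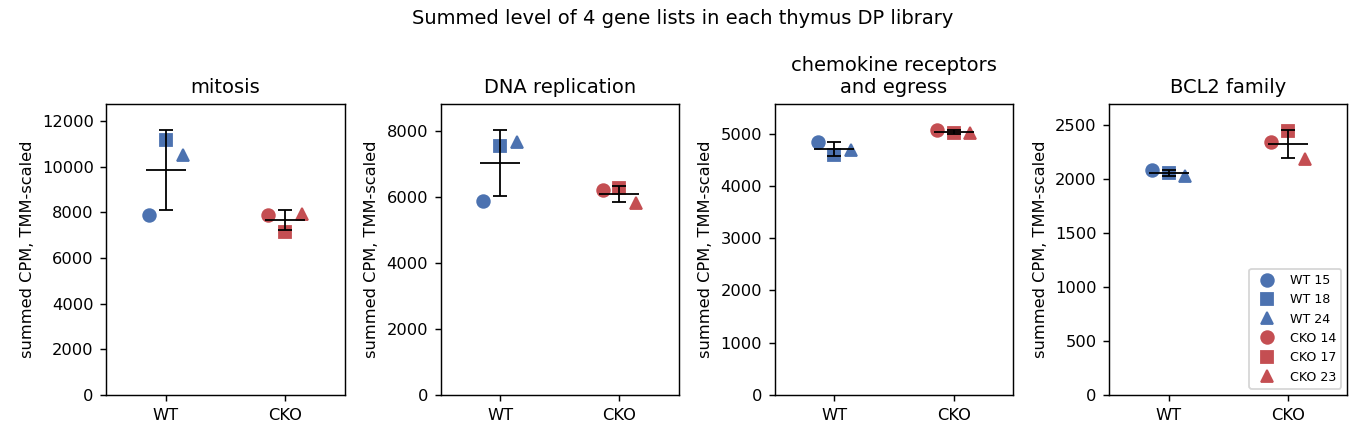
Summed CPM (linear axes from 0) of the mitosis, DNA replication, chemokine receptor and egress, and BCL2 family lists in each thymus DP library. Points are libraries, and the black line and bar give the mean and SD of 3 libraries. WT 15 lies with the CKO libraries for mitosis and DNA replication, and CKO libraries lie above all WT libraries for the other 2 lists.

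The BCL2 family was led by Bmf. Of 17 tested members 1 (Bmf) was higher, 0 were lower and 16 were not called, and 6 (35.3%) had all CKO libraries above all WT libraries, beside 6.31% of all genes. The median was 0.21. The survival gene Bcl2 stood at 26.7, 27.3 and 27.7 CPM in WT 15, 18 and 24 and at 32.2, 30.6 and 32.7 CPM in CKO 14, 17 and 23 (0.23 ± 0.09), and the pore-forming Bax at 23.95, 24.04 and 27.7 CPM in WT and at 29.4 CPM or more in each CKO library (0.23 ± 0.10). Neither overlapped, and neither passed (adjusted p = 0.693 and 0.698 by edgeR's quasi-likelihood test). Bcl2l11, the gene of the BH3-only protein BIM, stood at 415 to 502 CPM in WT and 577, 745 and 430 CPM in CKO 14, 17 and 23, so CKO 23 lay within the WT range. Bbc3, the gene of PUMA, stood at 0.21 ± 0.10. Bcl2l1 and Mcl1, the survival genes of highest level, stood at 0.02 ± 0.06 and 0.05 ± 0.07. The median of the list was 0.07 without CKO 14.

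Splicing regulators other than Mbnl1 had mostly lower estimates. Of 27 tested, 1 (Mbnl1) was higher, 0 were lower and 26 were not called. The median was -0.08, and 23 estimates (85.2%) were negative, beside 49.1% of all genes. At an unadjusted p under 0.05 there were 6 lower (22.2%): Hnrnpa1 (-0.21 ± 0.07), an RNA-binding repressor of exons whose many near-identical copies make its count uncertain, and the SR-type activators Srsf2, Srsf3, Srsf7, Tra2a and Tra2b, at -0.24 to -0.17. The share over all genes was 3.83%. There were 3 lower without WT 15, 4 without WT 18 or CKO 14, 3 without CKO 17, 9 without CKO 23 and 0 without both WT 18 and CKO 17. Of all genes, 5.38% were lower at that p without WT 15, 1.74% without WT 18 and 2.42% without CKO 14. This share was 3.79% without CKO 17, 4.56% without CKO 23 and 1.81% without both WT 18 and CKO 17. Srsf7 stood at 459, 419 and 406 CPM in WT 15, 18 and 24 and at 365, 329 and 399 CPM in CKO 14, 17 and 23. The groups were separated, though CKO 23 came close to WT 24. Genes of the Sm proteins and of snRNP assembly, whose proteins PRMT5 methylates or serves, had 0 of 20 called and 0 at an unadjusted p under 0.05, with a median of -0.04. Snrpb stood at 257 to 301 CPM in WT and 245 to 270 CPM in CKO, and Snrpd3 at 94.6 to 116 and 95.7 to 111 CPM.

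Positive estimates were found for 12 of 14 tested genes of chemokine receptors and egress, 22 of 25 of the mature single-positive list and 26 of 33 of T cell receptor signalling, beside 50.9% of all genes. In the list of chemokine receptors and egress, of 14 tested 0 were higher, 0 lower and 14 not called; 6 (42.9%) were higher at an unadjusted p under 0.05, beside 3.23% of all genes, and the median was 0.15. Without WT 18 there were 2 such genes and without CKO 14 there were 3. Over all genes, 418 of 11813 and 505 of 11761 had that p in either direction in these fits, beside 822 of 11634 with the 6 libraries. Ccr4, a receptor gene induced after positive selection, stood at 11.0, 10.45 and 15.9 CPM in WT 15, 18 and 24 and at 18.5, 21.6 and 16.5 CPM in CKO 14, 17 and 23 (0.59 ± 0.17). The groups were separated by less than 1 CPM. Ccr7, which guides cells to the medulla, stood at 6.22 to 9.79 CPM in WT and 9.25 to 13.1 CPM in CKO, and overlapped. Ccr9, a receptor gene of cortical thymocytes, stood at 850, 747 and 870 CPM in WT and 969, 947 and 918 CPM in CKO, with no overlap (0.20 ± 0.08). Cd44, an adhesion gene, stood at 0.56 ± 0.21 and Cxcr4, a retention receptor gene of the cortex, at 0.29 ± 0.11, while S1pr1, the egress receptor gene, was at 2.92 to 5.41 CPM in both genotypes (-0.04 ± 0.26).

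In the mature single-positive list, of 25 tested 0 were higher, 0 lower and 25 not called. The median was 0.18, and 22 estimates (88%) were positive, beside 50.9% of all genes. At an unadjusted p under 0.05, 4 (16%) were higher, beside 3.23% of all genes: Itm2a, Gimap6, Emb and Ccr7. Gimap6, a GTPase gene of lymphocyte survival, stood at 322, 251 and 288 CPM in WT 15, 18 and 24 and at 351, 409 and 321 CPM in CKO 14, 17 and 23, and overlapped by CKO 23. Il7r and Klf2, hallmarks of mature cells, had negative estimates of -0.54 ± 0.31 and -0.22 ± 0.20. The median of the list was 0.07 without WT 18 and 0.07 without CKO 23, and 2 (without WT 18) to 9 (without CKO 17) were higher at that p with 1 library left out. Over all genes, 418 of 11813 had that p in either direction without WT 18, and 810 of 11780 without CKO 17. Of 33 T cell receptor signalling genes tested 0 were called, and the median was 0.05. At an unadjusted p under 0.05, 8 (24.2%) were higher and 0 lower, beside 3.23% and 3.83% of all genes. Among those higher were Cd2, Cd5, Nfatc1, Fyn, Cd3d, Cd28 and Nfatc2. Cd5, which tunes receptor signals and marks their strength, stood at 231, 184 and 221 CPM in WT 15, 18 and 24 and at 246, 249 and 264 CPM in CKO 14, 17 and 23, with no overlap (0.25 ± 0.08). Of the list, 7 estimates (21.2%) were negative, beside 49.1% of all genes. Among these was Nr4a1, at 796 to 964 CPM in WT and 773 to 819 CPM in CKO, with overlap (-0.18 ± 0.08). Without WT 18 only 1 of the list was higher at that p, and without CKO 14 there were 3. In those fits 418 of 11813 and 505 of 11761 of all genes had that p in either direction.

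Among transcription factors of lineage choice 0 of 19 were called. Of these 19, 3 were higher and 2 lower at an unadjusted p under 0.05, beside 3.23% and 3.83% of all genes. Those higher were Tox, Patz1 (0.16 ± 0.06), a regulator of the coreceptor genes, and Lef1 (0.14 ± 0.06), a Wnt pathway factor. Id2 and Id3, inhibitors of E proteins, were lower at that p: Id3 stood at 136, 145 and 143 CPM in WT 15, 18 and 24 and at 123, 125 and 125 CPM in CKO 14, 17 and 23, with no overlap (-0.18 ± 0.06). In the list of the DP stage 0 of 22 were called, with a median of 0.03. Ccr9 was higher and Mns1 (-0.25 ± 0.10) lower at an unadjusted p under 0.05 (4.55% each), beside 3.23% and 3.83% of all genes.

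**Figure D5:**
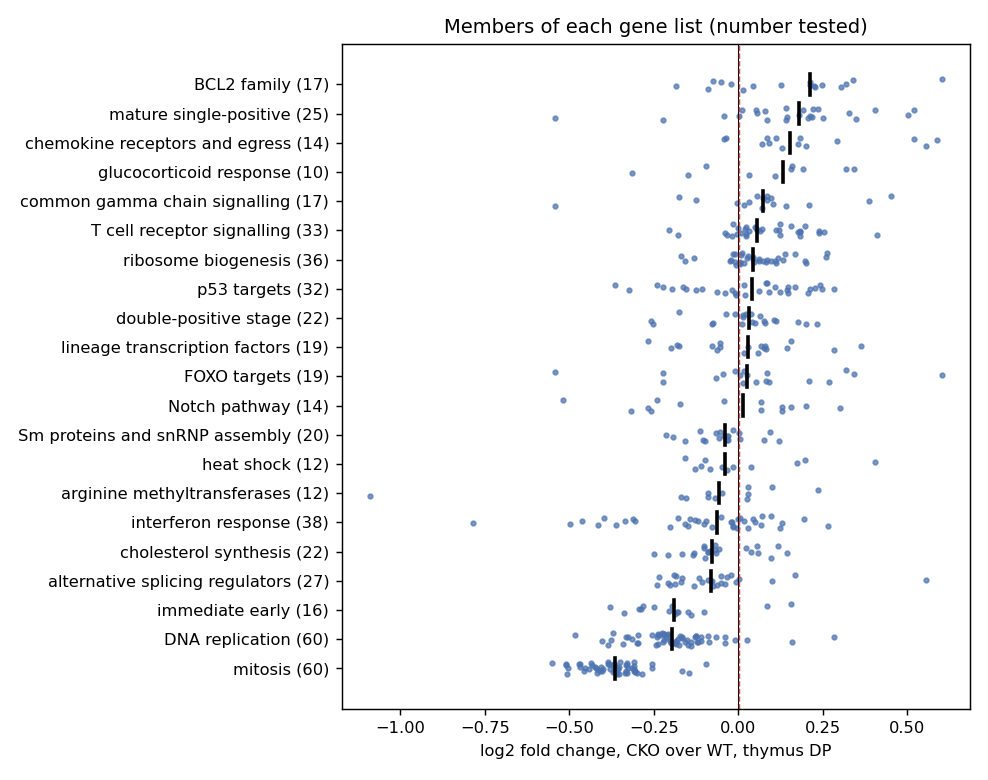
Log2 fold change (CKO over WT) of each tested member of 21 gene lists, ordered by median. Points are genes, black bars are list medians, and the dashed line is the median of all genes tested. Mitosis (-0.37) and DNA replication (-0.19) have the lowest medians and the BCL2 family (0.21) the highest.

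Receptors and targets of the Notch pathway, which is strong before the DP stage and then shut down, were not called in any of 14 genes. Of the estimates 7 were positive and 7 negative, with a median of 0.01. At an unadjusted p under 0.05 there were 4 lower (28.6%, beside 3.83% of all genes) and 1 higher (7.14%, beside 3.23%), the coactivator gene Maml2 (0.30 ± 0.13). Notch1 stood at 358, 386 and 375 CPM in WT 15, 18 and 24 and at 311, 331 and 306 CPM in CKO 14, 17 and 23, with no overlap (-0.24 ± 0.06). Notch3 (-0.27 ± 0.11), Dtx1 (-0.52 ± 0.19) and Myc (-0.32 ± 0.13) were lowest in CKO 17. Without WT 24 or without CKO 17, 1 member was lower at that p, beside 2.97% and 3.79% of all genes. Beside these values, the summed level of 7 markers of double-negative thymocytes, an earlier stage, was 31.0 to 39.5 CPM in WT. It was 37.1 to 55.5 CPM in CKO, highest in CKO 17, with Cd34 at or below 0.182 CPM. In CKO 17 the sum came mostly from Mpzl2 (25.4 CPM) and Cd44 (15.8 CPM), both above all WT libraries. The other markers did not all follow: in CKO 17 Il2ra (4.39 CPM) lay within its WT range and Kit (3.11 CPM) below all WT libraries. The part of this summed level in the result was not tested.

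In the common gamma chain list 0 of 17 were called and 3 (17.6%) were higher at an unadjusted p under 0.05, beside 3.23% of all genes. Socs1, the inhibitor of cytokine signals, stood at 287, 291 and 318 CPM in WT 15, 18 and 24 and at 426, 426 and 320 CPM in CKO 14, 17 and 23 (0.39 ± 0.10). CKO 23 lay next to WT 24, and without CKO 23 Socs1 was called higher (0.51, adjusted p = 0.0452 by edgeR's quasi-likelihood test). Jak1, the kinase of these receptors, stood at 528 to 558 CPM in WT and 607 to 650 CPM in CKO (0.21 ± 0.06), with no overlap. Of 16 immediate early genes 0 were called and 3 (18.8%) were lower at an unadjusted p under 0.05, beside 3.83% of all genes: Ier5, Dusp2 (-0.29 ± 0.11) and Klf6 (-0.38 ± 0.15). For these 3 genes CKO 17 was the lowest library. The median of the list was -0.19, and -0.075 without CKO 17. Without CKO 23 it was -0.34, with 9 lower at that p and Fosb called (-0.72, adjusted p = 0.0452 by edgeR's quasi-likelihood test), and without WT 24 there was 1 lower. Of all genes, 4.56% were lower at that p without CKO 23 and 2.97% without WT 24. Klf6 stood at 143, 162 and 170 CPM in WT and at 135, 86.2 and 143 CPM in CKO, in the same order of mice, with WT 15 and CKO 23 nearly equal.

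In the lists of interferon response (38 tested), cholesterol synthesis (22) and heat shock (12), 0 members were called and 0 had an unadjusted p under 0.05, beside 7.07% of all genes. The medians were -0.06, -0.08 and -0.04. Of 36 ribosome biogenesis genes 2 (5.56%) were higher at that p, beside 3.23% of all genes (median 0.04). Of 32 p53 targets 2 (6.25%) were higher and 3 (9.38%) lower, beside 3.23% and 3.83% of all genes (median 0.04). Of 19 FOXO targets 1 (Bmf) was called, with Pik3ip1, an inhibitor of PI3 kinase, at 261 to 320 CPM in WT and 341 to 381 CPM in CKO (0.34 ± 0.08). Of 10 genes of the glucocorticoid response 7 estimates (70%) were positive, beside 50.9% of all genes, with a median of 0.13 (0.02 without CKO 14). Pik3ip1 was higher and Fkbp5, a chaperone gene of the receptor, lower at that p (-0.31 ± 0.09). The 2 induced genes thus had estimates of opposite sign.

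Among markers of other cells, the myeloid and dendritic list had 13 of 15 positive estimates (86.7%, beside 50.9% of all genes) with a median of 0.36. At an unadjusted p under 0.05, 1 was higher (C1qb) and 1 lower (Cd68), 6.67% each beside 3.23% and 3.83% of all genes. In this list 0 were called. Its summed level over 16 genes was 101 to 120 CPM in WT and 107, 107 and 148 CPM in CKO 14, 17 and 23, led by Cst3 at 52.9 to 66.3 CPM. Without CKO 23 there were 8 positive and 7 negative estimates, with a median of 0.013. CKO 23 was the highest library, with Cd74 at 31.7 CPM against 13.9 to 18.2 CPM in the rest. The cytotoxic and innate-like list summed to 23.1 to 35.1 CPM in WT and 25.4 to 36.7 CPM in CKO, mostly from Gzma.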

How the data were processed

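RNA of thymus DP cells sorted from 3 CKO and 3 WT mice was measured by poly(A)-selected, strand-marking RNA sequencing, per the labels' protocols. The authors deposited unnormalized read counts for each gene. The tools HISAT2 and HTSeq and the build GRCm38 come from the submitters' processing notes. Tool versions, annotation and strand setting were not given in the sources used here, so reads of a gene and an antisense partner cannot be told apart. Groups and animal numbers were taken from the sample titles. Of 21983 symbols, 11634 passed edgeR's filterByExpr with its defaults. Libraries were scaled by TMM and genotypes compared with edgeR 4.0.16 in R 4.3.3 (quasi-likelihood test, Benjamini-Hochberg adjustment, threshold 0.05, no fold threshold). The test was checked on simulated data. The SE of an estimate was obtained as its size over the root of the F statistic. In the shallowest library 10 counts equal 0.767 CPM. No pair of libraries within a group agreed within sampling noise (chi-square per degree of freedom 6.20 to 18.4).

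Gene lists (27, of which 6 are markers of other cells) are described by counts and medians only. The members and lists were chosen with earlier results of these data known. Named genes are Prmt5, genes called by edgeR, DESeq2 or voom, the 8 per direction with the smallest p and the 8 with the largest fold (at least 5 CPM in the higher group, no overlap, the latter with an unadjusted p under 0.05), 2 to 4 members of smallest p per list, Rag1, Cd4, Cd8a and neighbours of Prmt5 and Mbnl1. Unnamed gene models, pseudogenes and receptor segments were left out by symbol, and a few genes within the rule are not reported here. Other list members are named for their role, after their values were seen. Promoters and gene positions are from RefSeq GRCm38.p6, in which 11340 of the genes tested were matched by symbol.

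Other settings were DESeq2 1.42.0 on the same genes, edgeR with the size factors of DESeq2, voom with sample weights in limma 3.58.1, no minimum on counts, a minimum of 5 CPM in 3 libraries, leaving out each library, fitting the 12 libraries of the table, and a sex covariate. Xist was to be used with Ddx3y for the latter, which was read from Ddx3y alone. The interaction was fitted over DP and CD4 SP libraries of the same animals, per the labels, and its main fit did not pair them. Deviations across genes correlated at 0.0692 to 0.210 for 5 animals and at -0.135 for CKO 23, whose DP library correlated at 0.168 with CD4 SP of CKO 14, and the animal served as a block in an alternative.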

Additional observations from a re-analysis of the deposited data

How the results depend on the processing

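Genes higher in CKO numbered 2 with the 6 libraries and edgeR, 8 with DESeq2, 0 in the fit over 12 libraries, 0 without WT 18 and CKO 17 together (an alternative chosen after seeing the data) and 0 to 7 with 1 library left out. Genes lower numbered 1, with 11 by DESeq2, 2 with no filter (Cenpf added), 0 over 12 libraries and 1 to 38 with 1 library left out (38 without WT 15). Size factors of DESeq2, voom, the filter of 5 CPM and sex as a covariate gave 2 higher and 1 lower each. The cause of these differences was not tested. No paired analysis was run within DP, because WT and CKO mice share no numbers and no sample title pairs them. In the interaction the replicate block left 0 and 0 genes, as without it, with 166 in place of 263 genes at an unadjusted p under 0.05, and with 1 animal left out there were 0 to 1 more positive genes (Wisp3, without CKO 23) and 0 more negative. Of the single genes, estimates near 0 turned sign under voom for Epcam (-0.048), Blk (0.12), Cd79b (0.11) and Tbx21 (0.18), and for Tbx21 without WT 18 and CKO 17 (0.29). With 1 library left out, estimates took both signs for Il2ra (-0.0865 to 0.44), Gzma (-0.048 to 0.29), Blk (-0.61 to 0.20), Cd4 (-0.034 to 0.048), Cd79b (-0.11 to 0.086), Rag1 (-0.078 to 0.15) and Tbx21 (-0.41 to 0.19). None of these was called. With 3 mice per genotype, differences in genes of a few CPM have wide errors, and a gene that was not called may still differ.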

Other observations

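A pair of adjacent genes on chromosome 8 separated the CKO mice from each other and was picked out after its values were seen. Gcsh (chr8:116981967-116993498), which encodes the H protein of the glycine cleavage system, stood at 23.6 and 20.7 CPM in DP cells of CKO 14 and CKO 17, at 6.52 CPM in CKO 23 and at 6.26 to 7.43 CPM in WT. Pkd1l2 (chr8:116995679-117082449), a polycystin family gene, had 23 and 25 counts in CKO 14 and CKO 17, 0 in CKO 23 and 0 to 1 in WT. The same mice were high in thymus CD4 SP: Gcsh was 36.3 and 27.6 CPM in CKO 14 and CKO 17 against 11.7 to 16.4 CPM in the other libraries, and Pkd1l2 had 27 and 23 counts against 0 to 6. Atmin, on the other side of Gcsh, stood at 81.3 and 81.2 CPM in DP cells of CKO 14 and CKO 17 and at 61.0 to 68.2 CPM in the rest, while Bco1, beyond Pkd1l2, was at 0 counts in all 12 libraries. With all 6 DP libraries Gcsh had a log2 fold change of 1.35 ± 0.36 (edgeR's quasi-likelihood test, adjusted p = 0.660), and without CKO 23 it was 1.73 (adjusted p = 6.05e-04). Overlapping transcription across the pair cannot be separated without the strand setting of the counts.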
